A study of Drosophila melanogaster with 2 samples.

Results

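Eip75B encodes E75, a nuclear receptor of the steroid hormone cascade that times moulting and metamorphosis in Drosophila melanogaster. The summits described here are the positions of highest signal of mod(mdg4) peaks along this gene, and 28 of the 6294 peaks in the thresholded list had their summit in the gene or within 5 kb of either end. They were chosen by position in a list that is itself selected on peak signal, and the gene was picked with its peaks known, so counts and densities are given as a description without a test. The gene (FBgn0000568) lies on the minus strand of chromosome arm 3L, from 17950953 to 18064696 on dm6, a length of 113744 bp, and with its flanks the region runs from 17945953 to 18069696. Summits are numbered here from 1 to 28 in the direction of transcription.

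The chromatin came from wandering larvae of the third instar, both sexes together, of 1 transgenic line in which mod(mdg4) carries GFP at its C terminus, and it was precipitated with an antibody against GFP. The design has 2 biological replicates of a single group (labelled 3 and 4) without another genotype, treatment or time. Peaks of one gene come from the same chromatin and are not replicates of each other. The labels do not name the promoter of the transgene or the mod(mdg4) isoform that is tagged, and this gene makes many isoforms with different C termini. Whole animals were used, so tissues are mixed, and the lists hold no expression by which the labelled stage or tissue could be checked.

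E75 is made from alternative promoters, and the proteins share their C-terminal part, with the ligand-binding domain that holds haem, but differ at their N termini. E75A has a complete DNA-binding domain, while E75B lacks part of it and is known to block the receptor HR3, an activator of ftz-f1. In polytene salivary glands the locus forms one of the early puffs that the hormone induces directly. mod(mdg4) is a BTB-domain protein known from insulators, where it works with su(Hw) and CP190.

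The sequences at the 3 strongest summits of the gene, and at the summit that was highest in replicate 4 relative to replicate 3, are shown because the signal and replicate results below turn on them. Each runs 100 bp to both sides of its summit on the strand of Eip75B, from the dm6 assembly. Capitals mark matches, on either strand, to the 9 short motifs that are spelled out with their counts further on. Summit 22, the strongest, lies at chr3L:17988209-17988409 in an intron and holds matches to the CTCF core, the Pho core, the su(Hw) core and the GAGA sequence. Summit 13 lies at chr3L:18011820-18012020, summit 15 at chr3L:18007543-18007743 and summit 8 at chr3L:18019680-18019880, all in the exon-free stretch before the start of transcript RC.

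Summit 22: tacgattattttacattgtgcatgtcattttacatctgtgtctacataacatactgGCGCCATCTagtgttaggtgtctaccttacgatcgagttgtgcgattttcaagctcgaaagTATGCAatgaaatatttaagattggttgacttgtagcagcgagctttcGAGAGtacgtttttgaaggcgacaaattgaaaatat
Summit 13: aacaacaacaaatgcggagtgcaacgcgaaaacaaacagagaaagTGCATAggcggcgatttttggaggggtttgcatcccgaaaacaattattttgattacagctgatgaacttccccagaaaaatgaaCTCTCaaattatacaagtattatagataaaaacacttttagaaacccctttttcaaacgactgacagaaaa
Summit 15: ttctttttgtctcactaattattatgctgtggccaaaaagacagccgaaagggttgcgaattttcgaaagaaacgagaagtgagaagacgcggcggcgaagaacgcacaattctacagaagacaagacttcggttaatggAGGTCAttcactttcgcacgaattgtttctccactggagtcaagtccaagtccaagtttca
Summit 8: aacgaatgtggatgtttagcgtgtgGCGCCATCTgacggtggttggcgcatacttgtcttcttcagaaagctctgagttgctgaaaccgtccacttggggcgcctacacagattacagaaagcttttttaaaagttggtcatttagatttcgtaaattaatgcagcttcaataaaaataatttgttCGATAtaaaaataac

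Summits 22 and 8 hold the same 9 letters of the CTCF core, read as GCGCCATCT on this strand, at base 57 and base 26 of the windows shown. The Pho core (GCCAT) is spelled within these same 9 letters in both, so it is no separate match there. The 150 bases before the starts of transcripts RC (chr3L:17999822-17999971) and RD (chr3L:17961815-17961964) are shown because these are the Eip75B starts nearest to a summit. Each holds 2 matches to the GAGA sequence, in the reversed reading. No share over the other Eip75B starts or the starts of other genes stands beside these matches.

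Before RC: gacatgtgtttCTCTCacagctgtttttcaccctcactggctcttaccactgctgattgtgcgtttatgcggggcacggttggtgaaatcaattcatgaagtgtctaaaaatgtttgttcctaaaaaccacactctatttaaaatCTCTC
Before RD: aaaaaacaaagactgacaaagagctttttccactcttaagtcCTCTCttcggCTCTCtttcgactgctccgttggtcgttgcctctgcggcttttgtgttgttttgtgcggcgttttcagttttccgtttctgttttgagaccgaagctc

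The annotation gives Eip75B 7 transcripts with 7 different starts, and 3 of these starts had a thresholded summit within 500 bp. Over all protein-coding genes 18.2% of annotated starts had one, and 24.8% did over the 323 starts of the other 110 genes of 80 to 150 kb. Signal is the peak caller's enrichment over the control library as deposited, on a scale of its own list, and place 1 is the strongest peak of a list. To set the replicates side by side, each replicate's signal was divided by its median over the thresholded peaks on the arms, 111 in replicate 3 and 80.6 in replicate 4.

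The start of RC had the strongest of the summits at starts in the pooled list and in replicate 3. In replicate 4 the summit at RD was stronger. Summit 17 lay 11 bp inside the transcript, in the 5' UTR, with a pooled signal of 295. Its signal was 234 in replicate 3 (place 852) and 60.2 in replicate 4 (place 5392). Scaled to the medians these were 2.10 and 0.747, a mean of 1.42 ± 0.956 (SD, n = 2), so the replicates put this summit on opposite sides of a typical thresholded peak.

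At RD, the start nearest to the 3' end, summit 26 lay 72 bp inside the transcript with a pooled signal of 179. Its signal was 76.9 in replicate 3 and 96.1 in replicate 4, or 0.942 ± 0.355 scaled (SD, n = 2). Summit 25 lay 514 bp before the same start, just past the 500 bp limit, with 173. It had 53.5 in replicate 3 (place 9585) and 119 in replicate 4 (place 1732). At RE, summit 2 lay 399 bp before the start with 129, and had 88.2 in replicate 3 and 44.9 in replicate 4. Summit 2 was the weakest of the summits at starts in the pooled list and in replicate 4. In replicate 3 it was above summit 26. Replicate 4 placed summit 2 at 8065, outside its 6294 strongest peaks.

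The other 4 starts had no thresholded summit within 500 bp. The nearest to RF, the outermost start, was summit 1 at 1364 bp, and the nearest to RA was summit 23 at 1260 bp. For RB and RG the distances were 2254 and 2188 bp. In the pooled list of 29999 peaks, which also holds background, weak summits lay within 500 bp of RF (signal 53.4, place 16238), RG (45.1, place 19900) and RA (44.3, place 20354), and RB had none. At RA the strongest summit within 500 bp had 34.7 in replicate 3 (place 16873) and 50.7 in replicate 4 (place 6836), so both replicates put it below their strongest 6294.

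**Figure D1:**
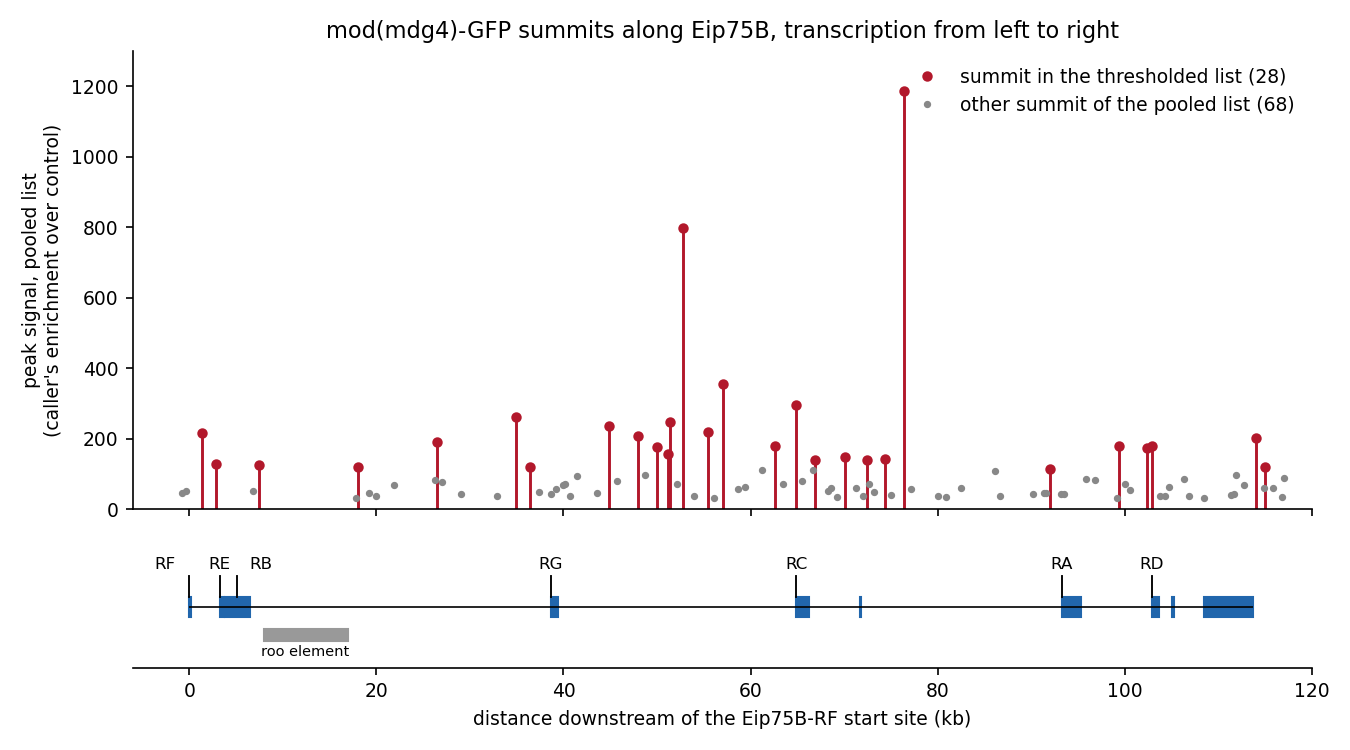
Signal of mod(mdg4)-GFP summits in the pooled list (y axis, the caller's enrichment over control) by distance in kb from the start of Eip75B-RF (x axis), with exons as blue boxes, the 7 starts as ticks and a roo element as a grey box. The 2 tallest of the 28 thresholded summits, at 1187 and 798, stand in introns, and the 68 other summits of the pooled list all lie at or below 112.

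Most summits lay in introns, away from any annotated start. Of the 28 summits, 24 were in introns of Eip75B, 2 in its 5' UTRs and 2 past its 3' end. None lay in a coding exon or a 3' UTR, and no share over the arms stands beside the UTR and coding counts. Outside the exons of all genes, 23 (82.1%) lay in an intron, against 46.9% of the 6273 thresholded summits on the arms. The arm share takes in genes of all lengths. Stretches free of Eip75B exons, of 32204, 25509 and 21468 bp, alone make up much of this gene of 113744 bp. The share of its region that is intron was not set beside the 82.1%, so the difference cannot be read as a preference for introns. Only 3 of the 28 summits (10.7%) lay within 500 bp of a start of a protein-coding gene, all at Eip75B starts, against 42.0% over the arms. In the other genes of 80 to 150 kb, 79 of 487 summits (16.2%), counted once for each gene whose region holds them, lay within 500 bp of a start of that gene. The median distance to the nearest Eip75B start was 6894 bp, with a range of 11 to 12888 bp.

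The strongest summit of the gene, number 22, stood 11512 bp downstream of the RC start, in an intronic stretch of 21468 bp that ends at the RA start. Such stretches are given as the distance between exons of any Eip75B transcript, so an intron of one transcript can span several. Its pooled signal was 1187, place 41 among the 6273 arm peaks. It had 646 in replicate 3 (place 78) and 540 in replicate 4 (place 55), or 6.25 ± 0.636 times the median (SD, n = 2). In both replicates it was the strongest of the 28. Over the other genes of 80 to 150 kb that held a summit, the strongest peak of a region had a median signal of 358. Of those genes, 3 (bun, RapGAP1 and pyd) held a peak stronger than summit 22. RapGAP1 and pyd were named after their values were seen.

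Summit 13, the second strongest, stood 12099 bp upstream of the RC start with a pooled signal of 798, at place 163 on the arms. It had 489 in replicate 3 (place 168) and 315 in replicate 4 (place 214), or 4.15 ± 0.338 times the median (SD, n = 2). The spread between the replicates was small beside the distance of both summits from the other 26. The third, summit 15, had a pooled signal of 357, at place 968 on the arms, with 229 in replicate 3 and 131 in replicate 4, or 1.84 ± 0.307 times the median (SD, n = 2).

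The remaining summits were of ordinary strength. The 28 had a median signal of 180 and quartiles of 140 and 224, against a median of 186 and quartiles of 142 and 278 for all thresholded arm peaks. Signals of 12 of them were above the arm median. Over the other genes of 80 to 150 kb, the median signal within a gene had a median of 171 and was above that of Eip75B in 36. Of those 110 genes, 25 had no summit and give no median, and some medians rest on 1 summit.

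Summits 8 to 16 formed the fullest stretch, in the exon-free stretch of 25509 bp between the first exons of RG and RC. From the RG start to the RC start there were 9 summits in 26.2 kb, or 34.3 per 100 kb, with signals of 158 to 798 and a median of 219. Each replicate's own strongest 6294 peaks gave 10 there. Between RC and RA there were 7 summits in 28.4 kb with a median signal of 144, the 5' UTR summit of RC included, and the replicates gave 4 (replicate 3) and 7 (replicate 4). The stretch from RB to RG, which holds the longest exon-free stretch (32204 bp), had 5 in 33.6 kb with a median of 126. The replicates gave 3 and 4 there. The length of this stretch includes a roo retrotransposon of 8999 bp in which the pooled list has no summit. The upstream flank of 5 kb had none, and neither did the 1.855 kb between RE and RB. Short stretches such as RF to RE, with 2 summits in 3.243 kb, give densities that rest on few summits.

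**Figure D2:**
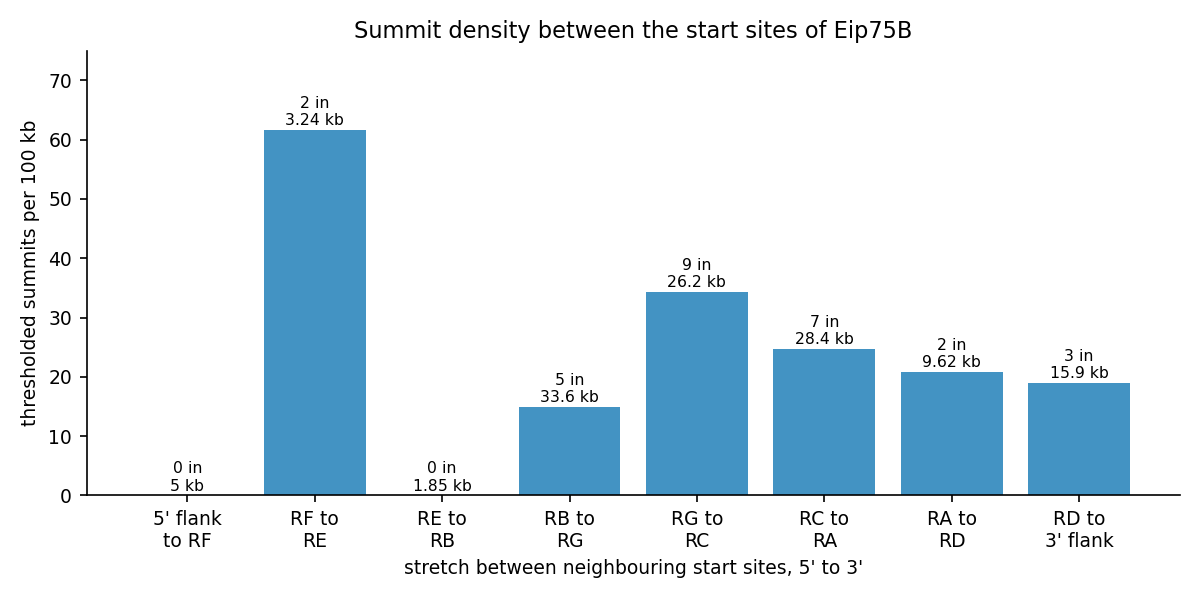
Thresholded summits per 100 kb (bars) in each stretch between neighbouring Eip75B starts, from 5' to 3' (x axis), with the count and length above each bar. Of the stretches over 10 kb, the one from RG to RC has the highest bar, at 34.3 per 100 kb, and the one from RB to RG the lowest, at 14.9. The length from RB to RG includes a roo element of 8999 bp in which the pooled list has no summit.

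Neighbouring summits were a median of 2335 bp apart over the 27 gaps. The closest pair, summits 12 and 11, was 229 bp apart, and replicate 3 had a single peak over both. Gaps under 2 kb numbered 11, and gaps over 5 kb numbered 8. The widest gap, 15610 bp, lay between summits 22 and 23, and the pooled list has weaker summits inside it, one of them with a signal of 108. The next widest, 11049 bp, lay between summits 26 and 27. The third widest, 10585 bp between summits 3 and 4, spans the roo retrotransposon of 8999 bp, in which the pooled list has no summit. No source used here says how reads that match several places were handled, and the part of this in that gap was not tested.

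Of the 2 summits past the 3' end, summit 27 lay at 17950693, just beyond the annotated end of the gene at 17950953, with a pooled signal of 204. It had 120 in replicate 3 and 93.5 in replicate 4, or 1.12 ± 0.0597 times the median (SD, n = 2). Summit 28 lay 1049 bp further on, with 120.

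Among the other genes in the region, 1 had a thresholded summit at its start. Summit 5 lay 23 bp from the start of lncRNA:CR45922, a noncoding gene in the stretch between RB and RG, with a pooled signal of 191, 96.7 in replicate 3 and 79.0 in replicate 4. The nested protein-coding genes CG32192 and CG42393 had no thresholded summit inside them or within 500 bp of their starts, and neither did lncRNA:CR45921. CG44006 and lncRNA:CR43174, which reach into the flanks, and lncRNA:CR45393 in the 3' flank had none inside them either. Past the flanks, the nearest protein-coding genes were CG44005, with the nearest thresholded summit 8791 bp from its start, and CG5290, with one at 25 bp (signal 171).

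All 28 summits overlapped a peak in the full lists of both replicates, as did 6197 of the 6273 thresholded arm peaks. A peak among the strongest 6294 was overlapped in replicate 3 by 22 summits, in replicate 4 by 25 and in both by 20 (71.4%), against 70.8% of all thresholded arm peaks. Summit 7 was the one outside both. Replicate signals, scaled to their medians, differed by over 2-fold at 3 of the 28 (10.7%), against 13.4% of the 6197 arm peaks found in both replicates. These 3 were summit 17 at the RC start, higher in replicate 3, and summits 8 and 25, higher in replicate 4. Summit 8 had 68.8 in replicate 3 (place 6764) and 171 in replicate 4 (place 792), or 1.37 ± 1.07 times the median (SD, n = 2). The log2 ratio of scaled signals, replicate 3 over replicate 4, had an SD of 0.66 over the 28 summits and 0.69 over all arm peaks in both. Summits 22 and 13 were the strongest and second strongest in each replicate, while the order of the others differed between them.

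**Figure D3:**
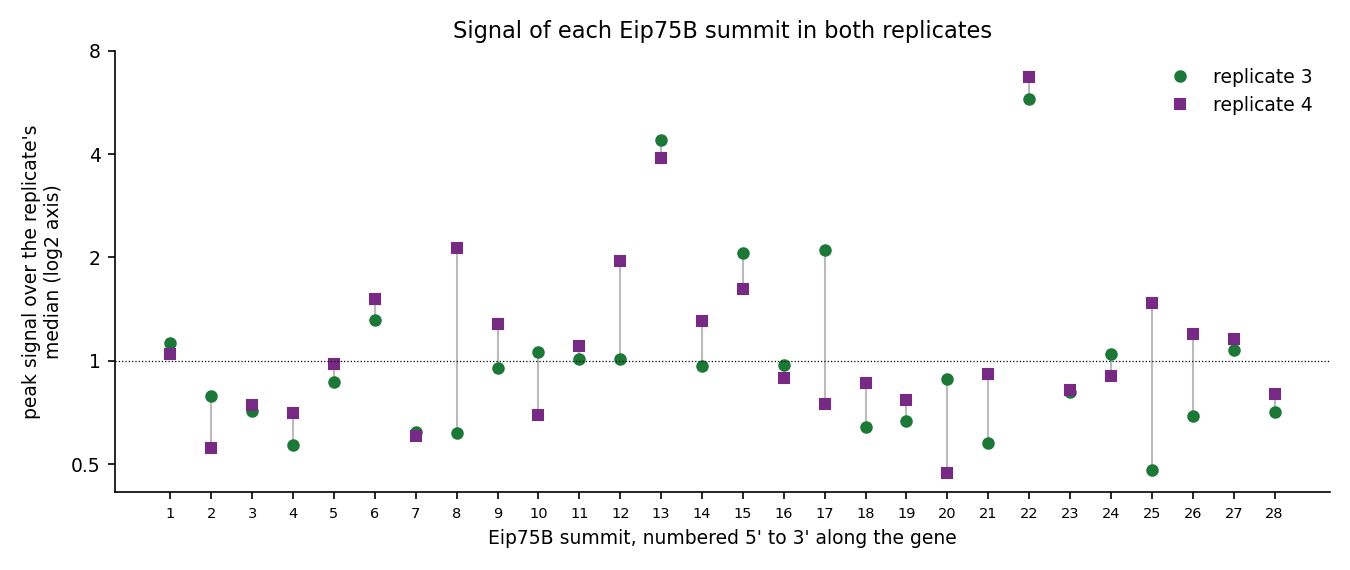
Signal of each Eip75B summit divided by the replicate's median over thresholded arm peaks (y axis, log2 scale), for replicate 3 (circles) and replicate 4 (squares), with summits numbered from 5' to 3' (x axis). Summits 22 and 13 stand at 3.91 or above in both replicates, while summits 8, 17 and 25 show the widest distances between the replicates.

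At the limit of the list, the weakest member was summit 23 with a signal of 113.2, at place 6290 of 6294. The strongest summit of the region that was left out had 111.9 (place 6400 of the pooled list) and lay 205 bp from summit 18, and the next had 110.9. The pooled list held 96 summits in the region, so 68 were below the threshold, with a median of 53.1.

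Eip75B held more thresholded summits than any other of the 13945 protein-coding genes on the arms, each taken with 5 kb at both ends. The next was Tet, which encodes a dioxygenase of the TET family, with 22. In the stronger 3147 peaks of the same list Eip75B had 12, and 4 other genes had as many or more, sbb with 13 the most. The gene is long, so its density was set beside genes of like length. It had 22.6 summits per 100 kb, the highest of the 111 genes of 80 to 150 kb, where the other 110 had a median of 2.49, quartiles of 0.797 and 5.71 and a maximum of 21.9, and 25 of them had no summit. The 6 arms as a whole had 4.69 per 100 kb. Nearest in density were EcR, the gene of the ecdysone receptor, with 20 summits or 21.9 per 100 kb, Tet with 21.4, and bun, a gene of the TSC22 family, with 19 or 18.8. These are the genes most like Eip75B by this measure over the 111 genes. The median spacing of summits was 2335 bp in Eip75B and had a median of 7342 bp over the 68 other genes with at least 2 summits, with 11 of these closer. Spacing follows in part from density and is no separate result.

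The first place by density was narrow and depended on the list, the flanks and the size band. With the strongest 6294 peaks of replicate 3, Eip75B had 23 summits (18.6 per 100 kb) and EcR 20 (21.9), and with those of replicate 4 Eip75B was again first with 29 (23.4). In the stronger 3147 peaks Eip75B had 9.70 per 100 kb, behind EcR with 12.1 and bun with 11.9, and in the strongest 12588 pooled peaks it had 40.4, behind EcR with 53.7. Without flanks Eip75B had 22.9, behind Tet with 23.7 and EcR with 23.4. In the band of 60 to 200 kb its 22.6 came after Eip74EF with 26.9 and Tlk with 26.3. The genes sbb and Tlk were named after their values were seen.

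**Figure D4:**
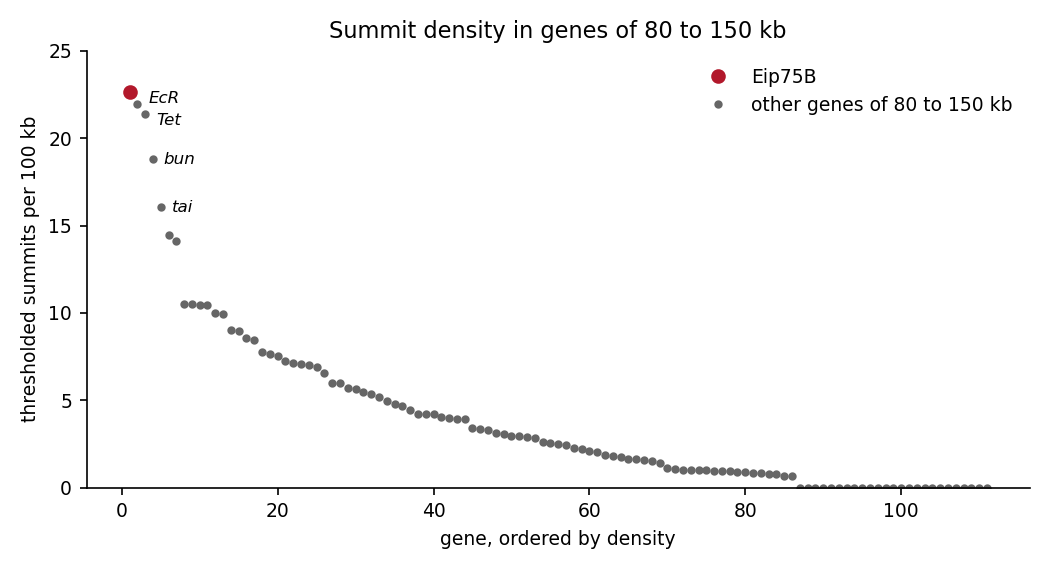
Thresholded summits per 100 kb (y axis) of the 111 protein-coding genes of 80 to 150 kb with 5 kb at each end, ordered from highest to lowest (x axis). Eip75B, at 22.6, stands at the top, close to EcR and Tet, and most genes lie under 5.71.

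Other genes of the ecdysone response also held summits, but none as many as Eip75B. Of the other 23 genes of a list of 24, all matched in the annotation (3 of them through synonyms), 16 had a summit within 500 bp of a start, against 18.7% of all protein-coding genes, and 21 had one in the gene or within 5 kb, against 47.2%. The shares over all protein-coding genes take in genes of any length and number of starts, and were not matched to the list. Lengths of the 23 ran from 1.235 to 94.8 kb. Of the 110 other genes of like length to Eip75B, 25 had no summit in the gene or its flanks. The part of length and number of starts in these differences was not tested. The list and its excess at starts were known from earlier results of these data and are no separate support. The median over the 23 was 5 summits. After Eip75B the most were at EcR (20), Eip74EF (19), which encodes an ETS-domain factor of an early puff, tai (15), the gene of a receptor coactivator, and vri (11), a bZIP repressor. Per 100 kb, Eip74EF had 26.9 and 4 further genes, vri, Kr-h1, Eip71CD and ImpL3, were above Eip75B too. The last 3 were named after their values were seen, and in genes this short the flanks make up much of the region. Eip55E and ImpL1, also named after their values were seen, had no summit. A summit lay within 500 bp of 3 of the 7 starts of Eip75B, against 3 of 4 in EcR and 3 of 3 in Eip74EF.

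Motif matches were counted within 100 bp of each summit, in windows of 201 bp and on both strands, as a description. The GAGA sequence (GAGAG), bound by GAGA factor, was present at 15 of the 28 Eip75B summits (53.6%), against 27.4% of the windows at all thresholded arm summits and 29.2% of the 465 summits in the other genes of 80 to 150 kb. At the 25 Eip75B summits over 500 bp from a protein-coding start it was present at 12, against 24.8% of such summits on the arms. Within 50 bp of a summit the count was 9 of 28, against 14.8%. Along the gene the matches were uneven, a pattern described after it was seen. All of summits 21 to 28, which begin 74.4 kb from the RF start, had one. Summits 1, 2 and 4 did too but not summit 3, and of summits 5 to 20 only numbers 6, 9, 13 and 17. This string reads as CTCTC on the other strand and can overlap itself. GC content, with which short motifs vary, had a median of 38.8% at Eip75B summits and 36.3% over the arms, and its part in these counts was not tested.

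The other motifs were close to their share over the arms or rest on few matches. The BEAF-32 element (CGATA) was at 9 of the Eip75B summits (arms 28.7%), the Pho core (GCCAT) at 6 (arms 26.6%) and the su(Hw) core (TGCATA) at 4 (arms 16.6%), of which 2 were summits 13 and 22. The CTCF core (AGNNGGCGC) was at 2, summits 8 and 22 (arms 3.79%). The half-site of nuclear receptors (AGGTCA), the type of sequence that E75 and EcR bind, was at 3, summits 1, 15 and 27 (arms 3.55%). No Eip75B summit held the DRE (TATCGATA, arms 3.11%), which contains the BEAF-32 element, Motif 1 (GGTCACACT, arms 1.72%), which shares letters with the half-site, or the core of the ecdysone element (TCANTGA, arms 4.53%). These strings were not found in these windows, which says nothing of the factors.

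**Figure D5:**
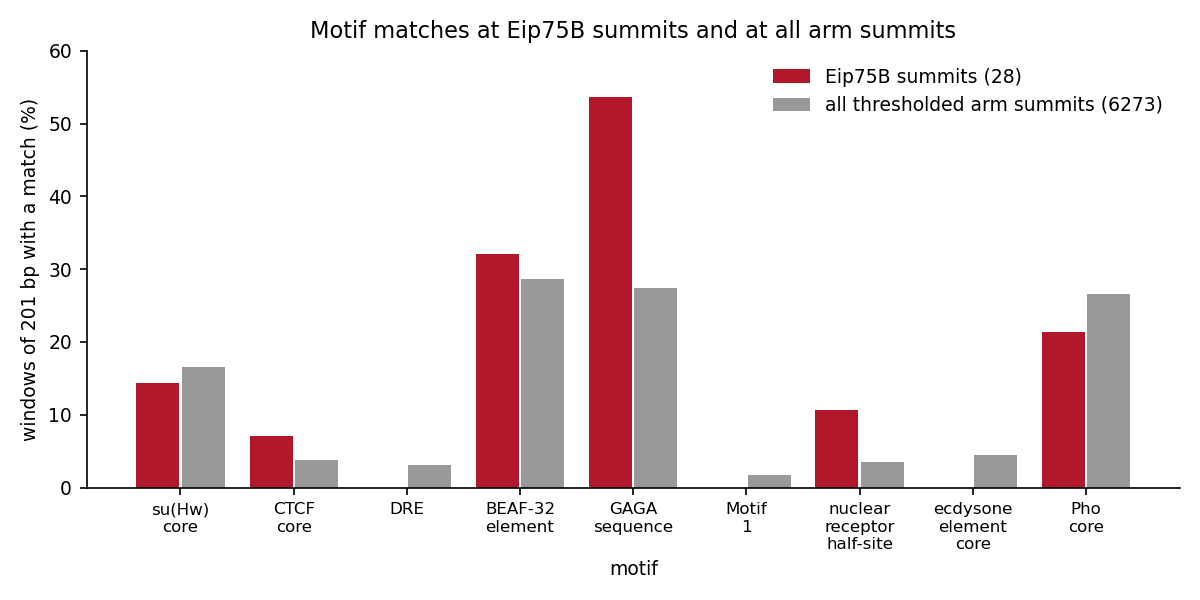
Share of 201 bp windows at summits with a match to each of 9 motifs (y axis, percent), for the 28 Eip75B summits (red, left) and the 6273 thresholded arm summits (grey, right). The GAGA sequence has the widest difference between the bars, 53.6% against 27.4%.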

How the data were processed

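Peaks of mod(mdg4)-GFP were taken from the dm6 lists of 2 replicates in 1 group, and the members and gene lists were chosen with earlier results of these data known. Per the labels and the text deposited with the samples, the authors sheared chromatin by sonication to 200 to 800 bp, called peaks and background on each replicate and on the pooled reads against a control library, and thresholded them by IDR. The sources used here do not name the caller, its version or the threshold. The deposited signal is enrichment over control on each list's own scale. The deposited -log10 q stood at its ceiling of 2.46 in 11 of the 28 summits and was not used further. The summit is the deposited start plus offset, counted from 1. The 21 mitochondrial peaks were left out of comparisons. No reads are counted in these files, so depth is unknown and intervals from counts cannot be had. The dm3 lists were not used. No test was made: there is 1 group, and the gene was known for its peaks.

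Genes came from Ensembl release 115 and bases from the RefSeq copy of the same assembly. A replicate peak was matched to a summit by an overlap of at least 1 bp, taking the nearest summit. The genes named are Eip75B, those in or next to its region, the 3 next below it in density, and the 5 ecdysone genes with most summits, and other genes are said to be named after their values were seen. Python 3.11.15, NumPy 2.4.6, pandas 2.3.3 and matplotlib 3.10.9 were used, and the counting of summits and motifs was tested on simulated data. Alternatives varied the list, flank, size band, distance to a start, overlap and window.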

Additional observations from a re-analysis of the deposited data

How the results depend on the processing

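Leaving out a replicate means taking the strongest 6294 peaks of the other. Across these lists, Eip75B had 23 to 29 summits, 18.6 to 23.4 per 100 kb, place 1 to 2 by density, 2 to 3 starts with a summit, 2 to 3 summits at its starts, a median spacing of 2521 to 3185 bp and a median scaled signal of 0.921 to 0.948 (0.969 in the pooled list). By count, Eip75B had 23 summits in the list of replicate 3 and sbb 26. The stronger 3147 thresholded peaks left 12 summits (9.70 per 100 kb, place 3 behind EcR and bun), 1 start with a summit, 1 summit at a start, a spacing of 7833 bp and a median of 0.873 times that of the arm peaks kept. The strongest 12588 pooled peaks gave 50 summits (40.4 per 100 kb), place 2 behind EcR and a spacing of 1480 bp. Counts follow the length of the list by construction. Without flanks the gene was at place 3 behind Tet and EcR, and in the band of 60 to 200 kb (220 genes) at place 3 behind Eip74EF and Tlk. Other flanks, intervals in place of summits, merging within 500 bp, distances of 250 or 1000 bp to a start and an overlap of 0.5 kept counts within 1.5 times of those reported. So did the strongest overlapping replicate peak in place of the nearest, a choice made after seeing the data. Motif counts stayed within 1.5 times in 22 of 27 alternatives; within 50 bp the GAGA count was 9, the su(Hw) count 2 and the CTCF count 1, which was also 1 without replicate 4, and the ecdysone core had 1 match without replicate 3. No paired analysis was possible because there is 1 group. Signals of single summits rest on 2 replicates.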

Other observations

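Below the threshold, several summits of the pooled list lay at starts of genes nested in or beside Eip75B. One lay 66 bp from the start of lncRNA:CR45393, past the 3' end of the gene, with a pooled signal of 89.9. Its matched peaks had 38.7 in replicate 3 (place 14644) and 99.0 in replicate 4 (place 2434). Only the peak of replicate 4 was among the strongest 6294. Both replicate peaks were also matched to a weaker pooled summit, 136 bp from that start, with 34.2. One lay 53 bp from the start of the nested gene CG42393, with 69.3 in the pooled list, 49.4 in replicate 3 and 26.4 in replicate 4. In the last exon of transcripts RA, RC and RF, downstream of where the other transcripts end, the pooled list had a summit of 98.7 with 70.2 in replicate 3 (place 6565) and 23.4 in replicate 4 (place 18553). The same replicate peaks were also matched to a weaker pooled summit nearby, with 44.3. These summits were named after their values were seen.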
